A study of Mus musculus with 6 samples.

Results

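The genes described here encode the kinetochore, the protein assembly that ties each chromosome to spindle microtubules, and the spindle checkpoint that watches over this attachment. They were chosen by name as 51 genes of 7 subcomplexes, and all 51 were found among the 22380 gene identifiers measured and passed the filter of a mean of at least 10 normalized counts, below which genes were not tested. RNA was measured in mouse embryonic stem cells (mESC), 3 *Ctrl* and 3 *Tet iTKO* lines, each line from a different embryo, to see which regulators of chromosome segregation change when TET enzymes, which oxidise 5-methylcytosine, are lost. *Ctrl* lines were CreERT2 wt/ki and Gt(ROSA)26Sor tm1Ytchn wt/ki, and *Tet iTKO* lines carried the same alleles plus Tet1/2/3 fl/fl. The reporter marks recombined cells with green fluorescent protein. All 6 lines were grown in 2i medium on mouse embryonic fibroblast feeders, received 1 µM tamoxifen for 2.5 days, then 4 further days without it, and were sorted at day 6.5 as live CD326+ GFP+ Thy1.2- cells. Both groups therefore carried the recombinase and the reporter and received the drug, and by design they differed by the floxed *Tet* alleles. The paper describes matings with wild-type C57BL/6J mice for *Ctrl* embryos and with floxed mice for *Tet iTKO* embryos. The floxed mice were made from C57BL/6NTac cells, so a substrain difference cannot be told apart from the *Tet* genotype.

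A kinetochore is built in layers. Nucleosomes holding the histone H3 variant CENP-A mark the centromere, and the constitutive centromere-associated network (CCAN) reads them. In mitosis the CCAN recruits the KMN network (KNL1, the MIS12 complex and the NDC80 complex), which grips microtubules with the help of the SKA complex, while the fibrous corona catches microtubules laterally. Unattached kinetochores feed the spindle assembly checkpoint, and the chromosomal passenger complex corrects wrong attachments. Transcripts of many of these genes are made mainly in late S phase, G2 and mitosis, and fast cycling mESC express most of them.

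In *Tet iTKO* mESC, 14 of the 51 genes were lower than in *Ctrl* at an adjusted p under 0.05 (limma with Benjamini-Hochberg adjustment over 10524 genes), 2 were higher and 35 did not pass the test. The lower genes were *Cenpa*, *Mis18a* and *Oip5* of CENP-A chromatin, *Cenpm*, *Cenpp*, *Cenpu* and *Cenpw* of the CCAN, *Zwint*, *Pmf1* and *Spc24* of the KMN network, *Bub3*, *Mad2l1* and *Trip13* of the checkpoint, and *Birc5* of the passenger complex. The higher genes were *Mis12* and *Cdca8*. The changes were modest, with means lower by 11.4% to 33.5% and higher by 20.6% and 36.2%. Over all genes tested, 18.4% were lower and 16.4% higher by the same rule, against 27.5% and 3.92% of the kinetochore and checkpoint genes.

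The median log2 fold change of the 51 genes was -0.14, beside 0.01 for all genes tested, and it came to -0.003 after each library was corrected for transcript length and GC content, which left 4 of the 51 lower and 7 higher. After that correction 13.5% of all genes were lower and 13.2% higher. The genes of the list below 2 kb carried most of the lower calls, and *Mis12*, *Cdca8*, *Cenpm* and *Spc24* passed in the same direction with and without the correction. The other 12 lower genes did not pass after it, and their log2 fold changes then ran from -0.29 (*Cenpu*) to -0.001 (*Cenpp*). The sign changed in 13 of the 51 genes, none of them called before the correction. The summed level of the 51 genes was 19750 to 20388 normalized counts in the *Ctrl* lines and 17751 to 18302 in the *Tet iTKO* lines, so that the groups did not overlap. The sum of all genes did not overlap either, at 4210784 to 4219665 in *Ctrl* and 3964824 to 3996522 in *Tet iTKO*, so the lack of overlap is not particular to the 51. In bulk RNA, fewer cells in the phase that makes a transcript and less RNA per cell cannot be told apart. Apart from the correction and a minimum fold, 2 changes moved the lower count by over 1.5 times: without the trend of variance on expression 7 genes were lower and none higher, and without *Ctrl* replicate 2 there were 9 lower and 2 higher. The genes *Mis12* and *Cdca8* thus depend on that trend for their calls as deposited. The spread behind every p is that between lines of a group, drawn by limma toward a value fitted over all genes tested.

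**Figure D1:**
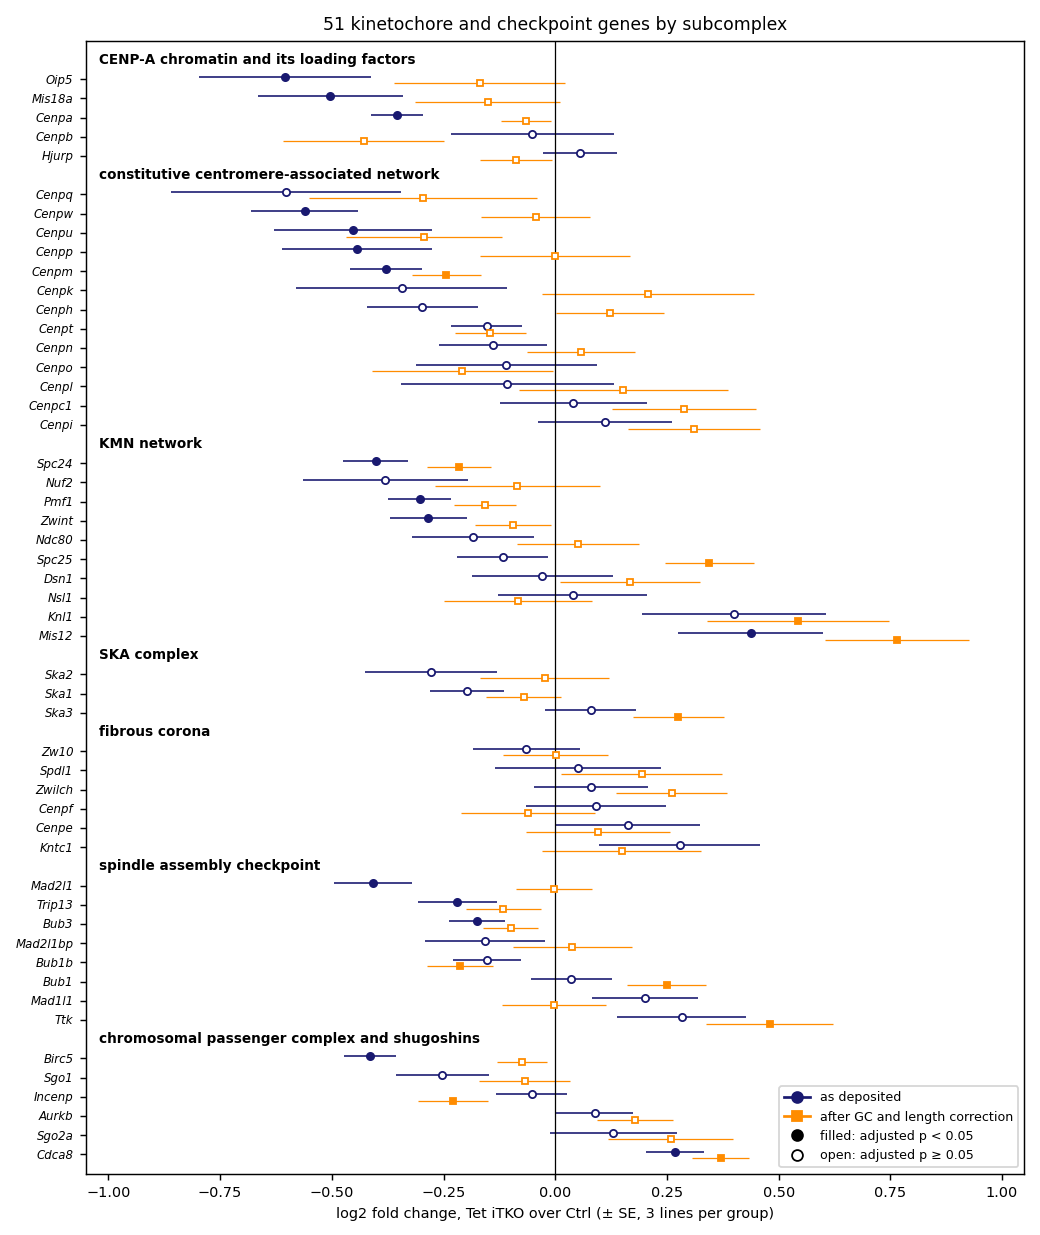
Log2 fold change of *Tet iTKO* over *Ctrl* (x axis, with standard error, 3 lines per group) for each of the 51 genes, grouped by subcomplex. Circles are the values as deposited and squares those after the length and GC correction, filled where the adjusted p is under 0.05: 14 filled circles lie left of 0 and 2 right of it, while 4 filled squares lie left and 7 right.

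A few facts of all 6 libraries frame these values. Normalized counts summed to 4210784 to 4219665 in the *Ctrl* libraries and 3964824 to 3996522 in the *Tet iTKO* libraries, and the reads behind them were not estimated here. Over the whole gene, exons outside the floxed part included, *Tet1* measured 696, 682 and 716 in *Ctrl* against 787, 895 and 753 in *Tet iTKO*, *Tet2* had 249, 170 and 230 against 233, 268 and 211, and *Tet3* had 28, 13 and 13 against 10, 3 and 3. Whole-gene counts do not check the deletion of single exons. The paper reports that reads from the floxed exons of *Tet1*, *Tet2* and *Tet3* were lost, and that TET1 and TET2 protein was not detected. All 10 pluripotency markers were expressed, with *Pou5f1*, *Nanog*, *Zfp42* and *Dppa5a* lower and *Esrrb*, *Klf4* and *Epcam* higher in *Tet iTKO*. After the length and GC correction *Pou5f1* was still lower and *Epcam* higher, *Dppa5a* was called higher (-0.39 before, 0.14 after), and *Nanog*, *Zfp42*, *Esrrb* and *Klf4* did not pass. *Tfcp2l1* (-0.46) was called lower and *Tdgf1* (0.19) higher only after the correction. The 12 feeder fibroblast markers summed to 547 to 593 in *Ctrl* and 814 to 844 in *Tet iTKO*. Of the 6 high enough to test, the collagens *Col1a1*, *Col1a2* and *Col3a1* were called higher. *Fbln1* (mean 257 in *Ctrl* against 289 in *Tet iTKO*), *Thy1* (39 against 35) and *Lox* (20.7 against 16.7) were not called. Below the filter, the mean of *Col6a1* went from 4.3 to 12.7 and that of *Dcn* from 6.7 to 3.0. *Postn* and *Twist2* lay at 0 to 3 in every library and *Pdgfrb* and *Lum* at 0 to 9. Of 6 primitive endoderm markers, with a sum of 24 to 32 in *Ctrl* and 26 to 47 in *Tet iTKO*, 2 were high enough to test and *Gata4* was called higher (1.64), a call that held in 3 of 6 fits without a line (not without *Ctrl* replicate 1 or *Tet iTKO* replicates 1 or 3, range 1.09 to 2.03) and not after correction (limma adjusted p = 0.094). The part of these other cells in the values given here was not tested. The median log2 deviation of any of 20 chromosomes, the autosomes and X, from its library's own median lay between -0.091 and 0.081. The 51 genes were spread over all 20. The Y chromosome, with few genes tested, was left out.

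The innermost layer, CENP-A chromatin, had 5 genes: the histone itself, the satellite DNA binding protein CENP-B, and 3 factors that load new CENP-A. *Cenpa* (chromosome 5) measured 1839, 1813 and 1908 normalized counts in *Ctrl*, against 1532, 1392 and 1427 in *Tet iTKO*. All 3 *Tet iTKO* lines lay under the lowest *Ctrl* line. The fitted log2 fold change of -0.35 (SE 0.06, limma adjusted p = 6.7e-06) passed in all 6 fits that left out a line.

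The MIS18 complex licenses the centromere for new CENP-A, and both of its paralogous subunits in the list fell. *Mis18a* had 139, 161 and 146 in *Ctrl* and 115, 102 and 97 in *Tet iTKO*, which differ by -0.50 on the log2 scale (SE 0.16, limma adjusted p = 0.014). *Oip5*, which encodes MIS18B, had 118, 122 and 112 against 74, 63 and 97, with a log2 fold change of -0.60 (SE 0.19, limma adjusted p = 0.013). In both the groups did not overlap. The *Mis18a* call was lost without *Ctrl* replicate 2 or *Tet iTKO* replicate 3 and the *Oip5* call without *Tet iTKO* replicate 2, while over the fits without 1 line their log2 fold changes ran from -0.57 to -0.44 and from -0.77 to -0.46. *Oip5* shares exonic bases on the opposite strand with *Nusap1*, whose mean was 277 normalized counts, and the Smart-Seq2 protocol keeps no strand. The reads were counted with a strand setting, so each was given to 1 gene by its orientation, which does not show the gene it came from. In all, 14 of the 51 genes share exonic bases with a gene on the opposite strand.

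*Hjurp*, the chaperone that deposits CENP-A, did not follow them, with 645, 564 and 595 in *Ctrl* against 689, 608 and 580 in *Tet iTKO* (log2 fold change 0.06, limma adjusted p = 0.64). The ratio of *Cenpa* to *Hjurp* counts was 2.85, 3.21 and 3.21 in *Ctrl* and 2.22, 2.29 and 2.46 in *Tet iTKO*. This pair was chosen after its values were seen, is given without a test, and joins transcripts of 1466 and 4878 bases. *Cenpb* had 112, 106 and 135 against 85, 141 and 120, and its groups overlapped (-0.05, limma adjusted p = 0.86). Per kb of transcript, *Cenpa* was first of the 5 in every library, at 1237 to 1302 normalized counts per kb in *Ctrl* and 950 to 1045 in *Tet iTKO*, and *Cenpb* was last in every library, at 17.4 to 28.9. After the length and GC correction none of the 5 passed the test. *Cenpa* then had -0.07, *Mis18a* -0.15 and *Oip5* -0.17 on the log2 scale, so that the sign stayed and the call did not. *Hjurp* changed sign to -0.09 (limma adjusted p = 0.46), so after correction it was not set apart from *Cenpa*.

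**Figure D2:**
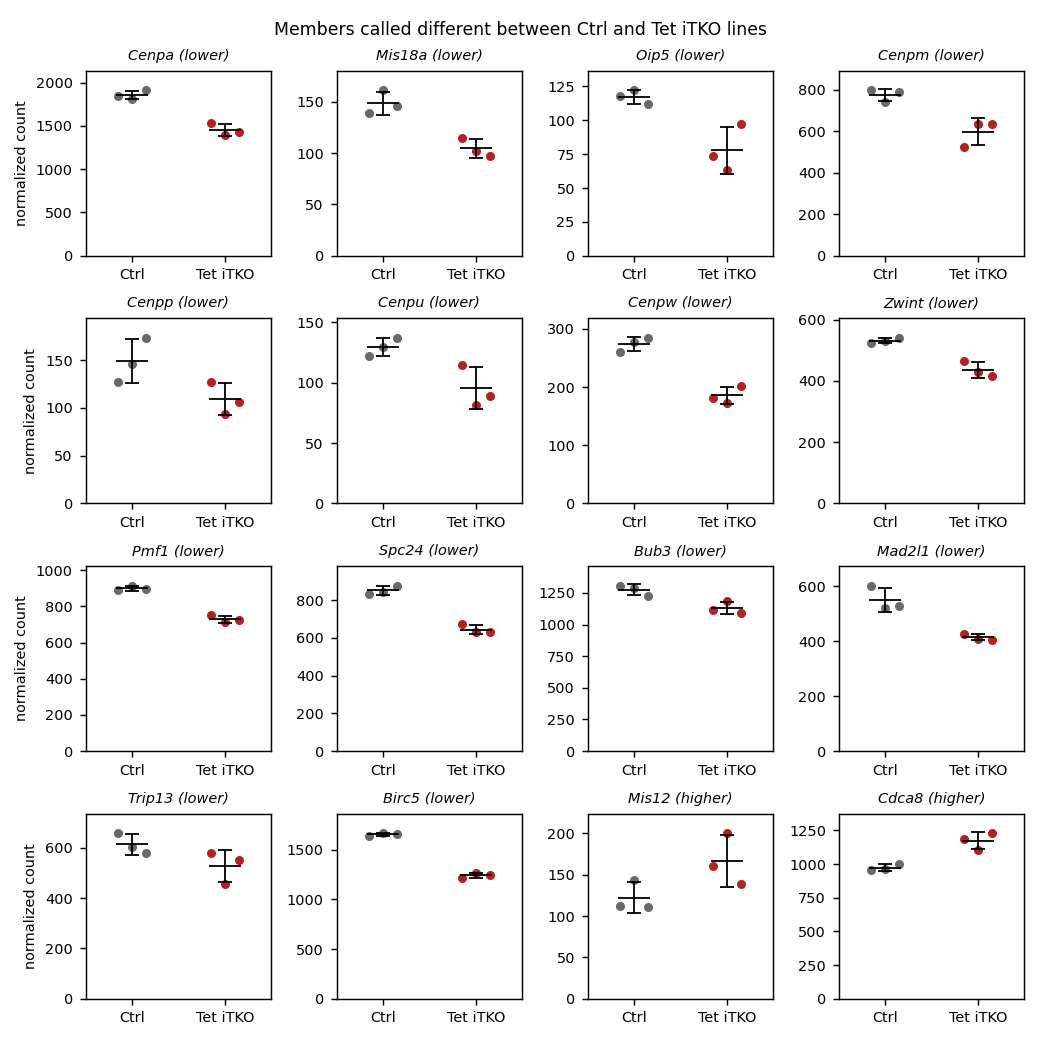
Normalized counts of the 16 genes called different, one panel per gene with the vertical axis from 0. Points are single lines, grey for *Ctrl* and red for *Tet iTKO*, and bars give the mean with its SD over 3 lines. *Birc5* shows the widest gap relative to the spread (1638 to 1663 against 1214 to 1262), whereas the groups of *Mis12* and *Cenpp* overlap.

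The promoters of *Cenpa* and *Cdca8* are shown because these genes were called in opposite directions and hold the same 2 kinds of motif. Sequences are those of RefSeq (build GRCm38.p6), from 250 bases before the start site to 50 after it, 5′ to 3′ along the gene. Capitals mark exact matches on either strand to TTTGAA, the core of the cell cycle genes homology region (CHR) found in many mitotic genes, and to CCAAT, the box bound by NF-Y. *Cenpa* lies at chr5:30666636-30666935 on the plus strand and *Cdca8* at chr4:124936868-124937167 on the minus strand.
Cenpa: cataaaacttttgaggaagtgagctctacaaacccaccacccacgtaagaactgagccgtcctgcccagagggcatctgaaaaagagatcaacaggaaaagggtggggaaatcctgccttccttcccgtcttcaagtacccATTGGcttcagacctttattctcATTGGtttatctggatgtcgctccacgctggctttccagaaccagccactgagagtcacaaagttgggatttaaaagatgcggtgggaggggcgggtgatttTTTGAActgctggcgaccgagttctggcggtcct
Cdca8: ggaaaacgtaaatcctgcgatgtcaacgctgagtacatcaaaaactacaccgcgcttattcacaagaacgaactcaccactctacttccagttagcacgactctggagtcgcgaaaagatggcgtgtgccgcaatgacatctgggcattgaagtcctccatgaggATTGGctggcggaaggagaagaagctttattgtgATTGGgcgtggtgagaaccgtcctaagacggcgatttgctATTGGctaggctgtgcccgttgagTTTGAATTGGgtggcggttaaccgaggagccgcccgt

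The *Cenpa* promoter holds 1 CHR core and 2 CCAAT boxes, and that of *Cdca8* holds 1 CHR core and 4 CCAAT boxes, the last of which overlaps the CHR core. Promoter sequences were found for 45 of the 51 genes, 50 promoters in all. The CHR core occurred in 40.0% of these, against 17.9% of all 32851 promoters and 11.6% of the promoters of genes tested. CCAAT occurred in 66.0%, against 37.4% and 38.3%. Within the list, the CHR core occurred in 42.9% of the promoters of the lower genes and 38.2% of those of genes not called, and CCAAT in 64.3% and 64.7%. An exact E2F site, TTTCGCGC or TTTGGCGC on either strand, occurred in 1 of the 50 promoters, that of *Cenpl*, in 0.813% of all promoters and in 1.67% of those of genes tested.

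The 13 CCAN genes, whose products sit on CENP-A nucleosomes throughout the cell cycle, had 4 lower calls and none higher. The lower calls were 30.8%, beside 18.4% of all genes tested. Their median log2 fold change was -0.30 and came to -0.001 with 1 lower call after correction. Summed levels were 2974 to 3117 normalized counts in *Ctrl* and 2524 to 2551 in *Tet iTKO*. *Cenpw*, the small histone-fold partner of CENP-T, had 261, 277 and 284 in *Ctrl* and 182, 173 and 202 in *Tet iTKO*. The groups did not overlap. The fitted log2 change was -0.56 (SE 0.12, limma adjusted p = 3.3e-04), and it did not pass after correction (-0.04, or -0.25 with the longest coding transcript). *Cenpt* itself had 643, 630 and 719 against 590, 631 and 568, with overlapping groups (-0.15, limma adjusted p = 0.13).

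*Cenpm*, an enzymatically inactive relative of small GTPases that binds CENP-I, had 797, 742 and 788 in *Ctrl* and 524, 635 and 636 in *Tet iTKO*, and the groups did not overlap (log2 fold change -0.38, standard error 0.08, limma adjusted p = 3.0e-04). It was the single CCAN gene still lower after correction (-0.24, limma adjusted p = 0.016), although with the longest coding transcript as the length it sat at the threshold (-0.20, limma adjusted p = 0.05). *Cenpi*, on the X chromosome, had 180, 150 and 124 against 160, 161 and 164, with overlapping groups.

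*Cenpp* and *Cenpu* encode parts of the CENP-O group, which gathers the kinase PLK1. *Cenpu* had 122, 130 and 137 in *Ctrl* and 115, 82 and 89 in *Tet iTKO* (-0.45, limma adjusted p = 0.043), and of the 6 fits without a line it passed in 1, that without *Tet iTKO* replicate 1 (range -0.59 to -0.35). *Cenpp* had 127, 146 and 173 against 127, 94 and 106 (-0.44, limma adjusted p = 0.037), with 1 line of each group at the same value, and it passed in 2 of 6, those without *Ctrl* replicate 1 and without *Tet iTKO* replicate 1 (range -0.56 to -0.33). *Cenpq* of the same group showed a fitted change close to that of *Oip5*, with 78, 85 and 55 against 62, 47 and 35 (-0.60), but overlapping groups and a limma adjusted p of 0.066. *Cenpo*, the lowest of the 13 per kb in every library (16.3 to 23.7 normalized counts per kb), had -0.11 with overlapping groups. *Cenpp*, *Cenpu*, *Cenpq* and *Cenpo* also share exonic bases on the opposite strand with *Ippk*, *Primpol*, *Mut* and *Adcy3*. Of these, *Mut* had a mean of 147.5 normalized counts, above every value of *Cenpq*. *Ippk* had a mean of 150.5, above every value of *Cenpp* but the 173 of *Ctrl* replicate 3. *Primpol* (29.0) and *Adcy3* (47.0) lay below every value of *Cenpu* and *Cenpo*.

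The remaining CCAN genes did not pass the test. *Cenph* (-0.30), *Cenpk* (-0.34), *Cenpn* (-0.14) and *Cenpl* (-0.11) had negative log2 fold changes that turned positive after correction (0.12, 0.21, 0.06 and 0.15), and *Cenpc1* (0.04), the scaffold of the inner kinetochore, and *Cenpi* (0.11) positive ones. *Cenpk* and *Cenpn* were below *Ctrl* in every line, with 58, 50 and 53 against 64, 80 and 62 for *Cenpk* and 212, 196 and 214 against 227, 222 and 236 for *Cenpn*. The *Tet iTKO* lines were all below the *Ctrl* lines for 5 of the 13 CCAN genes and 19 of the 51, the opposite held for 2 of the 51, and the shares over all genes were 22.9% and 21.2%.

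The KMN network, the microtubule-binding core of the outer kinetochore, was split between its subunits. Of 10 genes, 3 fell and 1 rose. *Pmf1* and *Mis12* encode subunits of the same MIS12 complex, which bridges the CCAN and the NDC80 complex. *Pmf1* had 890, 914 and 895 in *Ctrl* against 750, 711 and 726 in *Tet iTKO*, without overlap (-0.30, standard error 0.07, limma adjusted p = 7.7e-04). *Mis12* had 112, 144 and 111 against 161, 200 and 139, and its lowest *Tet iTKO* line lay under the highest *Ctrl* line (0.44, standard error 0.16, limma adjusted p = 0.033).

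The remaining subunits of that complex did not pass the test. *Dsn1* had 153, 128 and 125 against 127, 145 and 125 (-0.03), and *Nsl1* had 117, 218 and 141 against 148, 165 and 160 (0.04), a gene in which the second *Ctrl* line lay far above the other lines. The ratio of *Pmf1* to *Mis12* counts was 7.95, 6.35 and 8.06 in *Ctrl* and 4.66, 3.56 and 5.22 in *Tet iTKO*, without overlap. The pair was chosen after its values were seen, so the ratio is given without a test. *Mis12* shares exonic bases on the opposite strand with *Derl2*, which had a mean of 231 normalized counts, and its call held in 2 of 6 fits, those without *Ctrl* replicate 2 and without *Tet iTKO* replicate 3 (range 0.30 to 0.56). After correction *Mis12* rose further, to 0.77 (limma adjusted p = 3.0e-04), whereas *Pmf1* did not pass (-0.16, limma adjusted p = 0.092).

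*Spc24* and *Spc25* form the globular dimer with which the NDC80 complex docks onto MIS12. *Spc24* had 834, 846 and 877 in *Ctrl* and 673, 630 and 632 in *Tet iTKO* (-0.40, standard error 0.07, limma adjusted p = 3.6e-05), with no overlap, and was still lower after correction (-0.22, limma adjusted p = 0.022). *Spc25* had 394, 386 and 392 against 420, 311 and 357, so that the *Tet iTKO* lines lay on both sides of *Ctrl* (-0.12, limma adjusted p = 0.40). After correction *Spc25* was called higher (0.34, limma adjusted p = 0.0077), but not with the longest coding transcript (0.24, limma adjusted p = 0.071), and it is named here after its values were seen. The ratio of *Spc24* to *Spc25* was 2.12, 2.19 and 2.24 in *Ctrl* and 1.60, 2.03 and 1.77 in *Tet iTKO*. The long arms of the complex, *Ndc80* (177, 183 and 194 against 174, 165 and 149) and *Nuf2* (113, 126 and 111 against 78, 82 and 111), had fitted changes of -0.18 and -0.38 and did not pass.

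*Knl1*, the large scaffold that receives the checkpoint proteins, had 73, 61 and 88 in *Ctrl* and 111, 100 and 82 in *Tet iTKO* (0.40, limma adjusted p = 0.13). It was called higher after correction (0.54, limma adjusted p = 0.042), but not with the longest coding transcript (limma adjusted p = 0.060). *Zwint*, which binds KNL1, went the other way with 523, 532 and 540 against 466, 428 and 417, all *Tet iTKO* lines below *Ctrl* (-0.28, limma adjusted p = 0.0090), and this fall did not pass after correction (-0.09). Per kb, *Pmf1* was highest of the network in every library, at 884 to 908 normalized counts per kb in *Ctrl* and 706 to 745 in *Tet iTKO*, and *Knl1* lowest, at 9.35 to 13.5 and 12.6 to 17.0.

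The 3 SKA genes, whose products stabilise NDC80 on microtubule ends, gave no call. *Ska1* came closest, with 533, 585 and 573 against 465, 507 and 502, without overlap (-0.20, limma adjusted p = 0.063). *Ska2* had 195, 171 and 173 against 176, 124 and 148 (-0.28, limma adjusted p = 0.15). *Ska3* had 347, 327 and 378 against 328, 379 and 407 (0.08), and it was called higher after correction (0.28, limma adjusted p = 0.040). It shares exonic bases on the opposite strand with *Sap18*, which had a mean of 348.5 normalized counts.

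No gene of the fibrous corona passed the test, and 5 of the 6 had positive fitted changes, with a median log2 fold change of 0.09. These were the RZZ complex genes *Kntc1* (0.28) and *Zwilch* (0.08), the dynein adaptor *Spdl1* (0.05), and *Cenpe* (0.16) and *Cenpf* (0.09), which encode a plus-end kinesin and a large coiled-coil protein. *Zw10*, the third RZZ gene, had 279, 231 and 261 in *Ctrl* and 280, 216 and 243 in *Tet iTKO* (-0.06). The groups overlapped in all 6, and no corona gene passed after correction either. Per kb, *Zw10* and *Zwilch* shared the first 2 places in each library, and *Cenpe*, *Cenpf* and *Kntc1* the last places with levels of 11.8 to 21.8 normalized counts per kb that did not separate. The summed level was 938 to 1122 in *Ctrl* and 949 to 1115 in *Tet iTKO*.

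**Figure D3:**
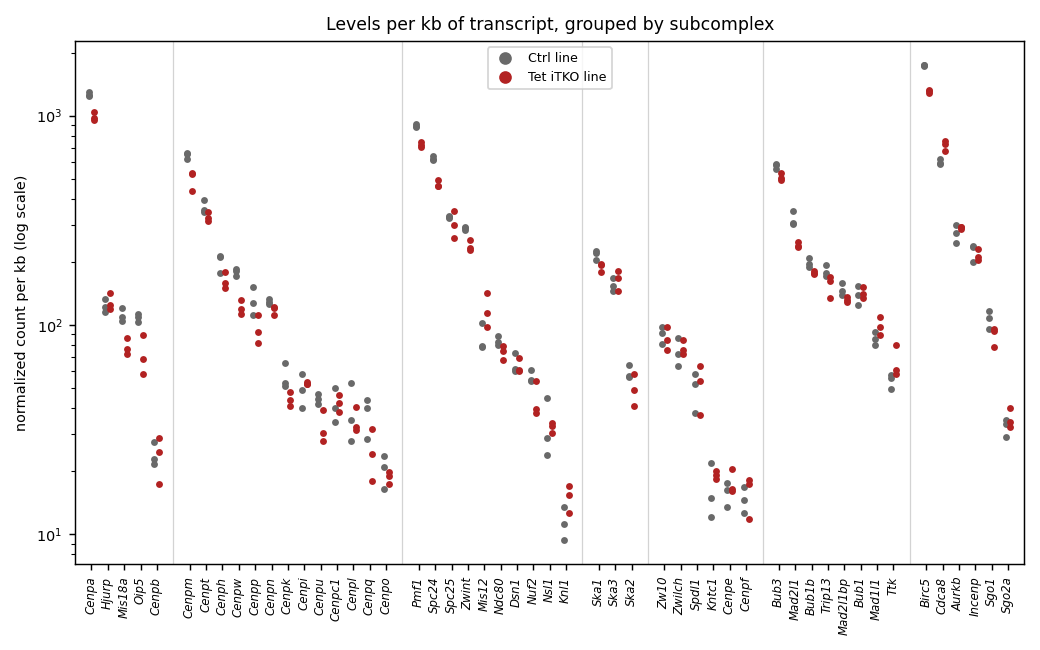
Level of each gene in normalized counts per kb of transcript (vertical axis, log scale) in each of the 6 lines, grouped by subcomplex and ordered by the *Ctrl* mean. *Birc5* and *Cenpa* lie highest, *Knl1* and the corona genes *Kntc1*, *Cenpe* and *Cenpf* lowest.

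Within the spindle assembly checkpoint, which holds anaphase until kinetochores are attached, 3 of 8 genes fell (37.5%, beside 18.4% of all genes tested). *Mad2l1*, the MAD2 protein that binds and blocks CDC20, had 602, 522 and 530 in *Ctrl* against 428, 410 and 406 in *Tet iTKO*. The groups lay far apart (-0.41, SE 0.09, limma adjusted p = 3.4e-04). *Trip13*, the ATPase that unfolds MAD2, had 657, 603 and 579 against 578, 456 and 551, groups that almost touch (-0.22, limma adjusted p = 0.049). *Bub3* had 1306, 1292 and 1227 against 1114, 1184 and 1092 (-0.17, limma adjusted p = 0.028). The *Mad2l1* call held in 6 of 6 fits without a line. That of *Trip13* held without *Ctrl* replicate 3 or *Tet iTKO* replicate 1 (range -0.29 to -0.12) and that of *Bub3* without *Ctrl* replicate 3 or *Tet iTKO* replicate 2 (range -0.21 to -0.15), and both were lost in the other 4 fits.

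The checkpoint kinases did not fall with them. *Bub1* had 527, 474 and 426 against 462, 517 and 480 (0.04, limma adjusted p = 0.80). *Ttk*, the kinase MPS1 that starts checkpoint signalling, had 160, 141 and 165 against 230, 168 and 174, each *Tet iTKO* line above each *Ctrl* line (0.28, limma adjusted p = 0.13). The pseudokinase gene *Bub1b* had 769, 715 and 693 against 662, 645 and 649, each *Tet iTKO* line below each *Ctrl* line (-0.15, limma adjusted p = 0.11). After correction *Ttk* (0.48, limma adjusted p = 0.0093) and *Bub1* (0.25, limma adjusted p = 0.030) were called higher and *Bub1b* lower (-0.21, limma adjusted p = 0.027), the last of which did not pass with the longest coding transcript (limma adjusted p = 0.051). *Mad2l1* then stood at -0.003, but at -0.36 (limma adjusted p = 0.0011) when the longest coding transcript supplied length and GC content, so its corrected value depends on which transcript is taken. *Mad1l1*, which carries MAD2 to kinetochores, had 225, 211 and 244 against 257, 237 and 289 (0.20), and *Mad2l1bp*, the adaptor for TRIP13, had 177, 202 and 184 against 164, 167 and 173 (-0.16), neither passing the test. *Bub3* was the highest of the 8 per kb in every library and *Ttk* the lowest.

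The chromosomal passenger complex holds 2 subunit genes called in opposite directions. Survivin (*Birc5*) and borealin (*Cdca8*) form one helical bundle with INCENP and bring the kinase Aurora B (*Aurkb*) to the inner centromere. *Birc5* counts were 1638, 1663 and 1659 in *Ctrl* and fell to 1214, 1262 and 1246 in *Tet iTKO*. *Cdca8* counts were 955, 963 and 1004 in *Ctrl* and rose to 1190, 1105 and 1228 in *Tet iTKO*. Neither gene overlapped between groups: the log2 fold change was -0.41 for *Birc5* (SE 0.06, limma adjusted p = 5.2e-07) and 0.27 for *Cdca8* (SE 0.07, limma adjusted p = 0.0014), and both calls held in all 6 fits without a line. *Cdca8* shares exonic bases on the opposite strand with *9930104L06Rik*, which is not analysed here.

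The ratio of *Birc5* to *Cdca8* counts was 1.72, 1.73 and 1.65 in *Ctrl* and 1.02, 1.14 and 1.01 in *Tet iTKO*. A ratio within a library does not depend on how that library was scaled and shows unequal change only. The pair was chosen after its values were seen and is given without a test. *Cdca8* was also higher after correction (0.37, limma adjusted p = 1.8e-05). For *Birc5* the correction gave -0.07 (limma adjusted p = 0.36) with a transcript of 947 bases and -0.34 (limma adjusted p = 1.1e-05) with the longest coding transcript. *Aurkb* had 505, 453 and 549 against 539, 536 and 523 (0.09), and *Incenp* 759, 647 and 768 against 683, 745 and 664 (-0.05), with overlap in both. *Incenp* was called lower after correction (-0.23, limma adjusted p = 0.025).

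The shugoshins protect centromeric cohesin and help to place the passenger complex. *Sgo1* had 390, 422 and 345 in *Ctrl* and 348, 284 and 339 in *Tet iTKO* (-0.25, limma adjusted p = 0.056), with a lone *Tet iTKO* line above the lowest *Ctrl* line. *Sgo2a*, the lowest of the 6 per kb in every library, had 165, 143 and 173 against 197, 169 and 161 (0.13, limma adjusted p = 0.51). *Birc5* was the highest, at 1730 to 1756 normalized counts per kb in *Ctrl* and 1282 to 1333 in *Tet iTKO*, and no gene of the 51 exceeded it.

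The calls were uneven over transcript length. Of the 51 genes, 22 had a transcript under 2 kb, a limit set after the values were seen, and 11 of these were lower and 2 higher, with a median log2 fold change of -0.32. Of the 29 longer ones, 3 were lower (*Cenpu*, *Bub3* and *Trip13*), none was higher and the median was 0.04. All genes tested showed the same gradient: 35.1% of 3232 genes under 2 kb were lower and 9.41% higher, against 10.9% and 19.7% of 7225 longer genes. Among short genes the list thus had 50.0% lower calls beside 35.1%, and among long genes 10.3% beside 10.9%. Spearman's correlation of fold change with length was 0.59 across the 51 genes and 0.33 across 10457 genes, and with GC content 0.03 and 0.25. Genes share libraries and are not independent replicates, so no p is given. The short, lower genes were those of small subunits (*Birc5*, *Pmf1*, *Oip5*, *Cenpp*, *Cenpm*, *Mis18a*, *Spc24*, *Cenpa*, *Cenpw*, *Mad2l1* and *Zwint*), and the long genes not called include the large scaffolds and motors (*Knl1*, *Kntc1*, *Cenpe* and *Cenpf*). The part of transcript length in these calls was not tested beyond the correction.

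**Figure D4:**
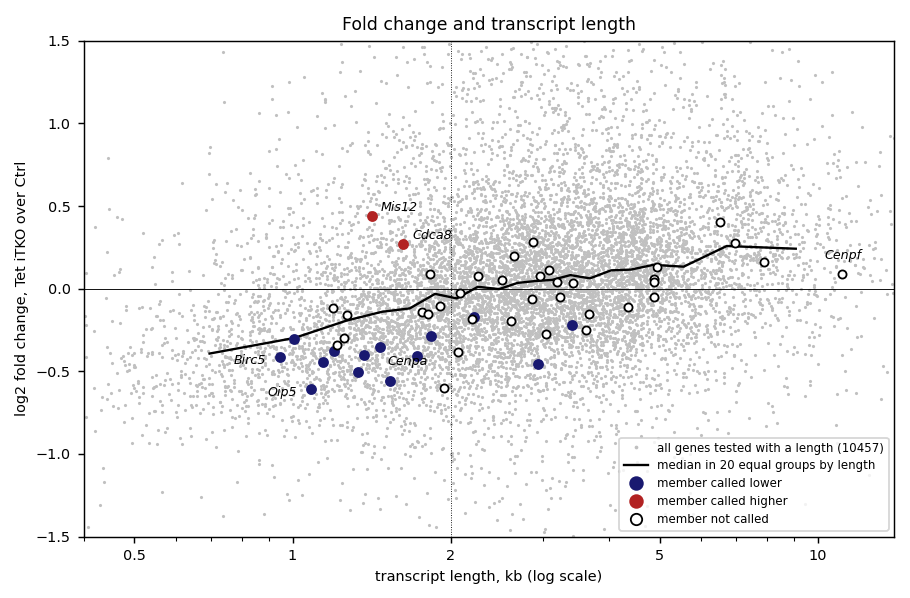
Log2 fold change of *Tet iTKO* over *Ctrl* against transcript length in kb (log scale), with all genes tested in grey, their median in 20 groups of equal size by length as a line, and the 51 genes as large points (blue lower, red higher, open not called). The dotted line marks 2 kb, and 398 genes lie outside the plotted range. Most lower genes sit left of the dotted line, where the median of all genes is also below 0, and *Mis12* and *Cdca8* sit above it.

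Lists of kinetochore regulators and cell cycle genes outside the 51 give the setting. Over all genes tested, 18.4% were lower and 16.4% higher, and after correction 13.5% and 13.2%. Of 20 other kinetochore and checkpoint genes, 5 were lower and 4 higher (median log2 fold change -0.05). The lower ones were *Cenps* and *Cenpx*, the histone-fold pair that binds CENP-T and CENP-W, with -0.64 and -0.57, *Mad2l2* (-0.51), *Bod1* (-0.39) and *Cdc20*, the target of MAD2 (-0.13). The higher ones were *Clasp1* (0.62), *Ndel1* (0.37), *Tpr* (0.26) and the mitotic kinase gene *Plk1* (0.21). After correction *Cenps*, *Mad2l2*, *Cdc20* and *Ndel1* passed in the same direction, and *Cenpx*, *Bod1*, *Clasp1*, *Tpr* and *Plk1* did not pass. *Rcc2* (-0.41) was called lower only then, and *Zfp207* (0.30) and *Nde1* (0.26) higher, so that these genes had 4 lower and 3 higher calls. Of 20 G2/M genes, 7 were lower and 1, *Mki67* (0.38), higher (median -0.12), with *Cdk1* at -0.54, *Ccnb1* at -0.41 and *Ccnb2* at -0.47, all lower after correction too, whereas *Mki67*, *Cks2* and *Cks1b* did not pass after it. *Ube2c* (0.32), *Anln* (0.29) and *Prc1* (0.24) were called higher only after correction, which gave 5 lower and 3 higher G2/M genes. Of 20 S phase genes, 8 were lower and 4 higher (median -0.14), *Gins2* (-0.74) and *Pcna* (-0.65) lower and *Cdc6* (0.30), *Rrm2* (0.23), *Mcm4* (0.21) and *Mcm6* (0.18) higher, and these 6 passed in the same direction after correction. With *Rfc2* (-0.30) called lower only after correction, the S phase genes then had 9 lower and 4 higher calls. Of 4 Y-linked genes, all expressed in all 6 lines, *Eif2s3y* was lower (-0.995, and -0.58 after correction) and none higher. *Ddx3y* (-0.29), *Kdm5d* (-0.83) and *Uty* (-0.37) also had negative log2 fold changes but did not pass. The 4 genes summed to 615 to 652 in *Ctrl* and 388 to 398 in *Tet iTKO*. The cause was not tested.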

How the data were processed

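The authors prepared Smart-Seq2 libraries, kept unique alignments from STAR, counted reads per gene with HTSeq 0.7.1 in its strand-specific mode and divided the counts by DESeq2 1.26.0 size factors (R 3.5.2, genome build mm9 per the labels). What the authors deposited is whole numbers, the rounded normalized counts, treated here as a score, not as read counts, so no count model was run. The library protocol keeps no strand. Read depth was not estimated here, so no counting intervals are given. Symbols (20775 of 22380 identifiers), transcript lengths and GC content came from GENCODE M21 on GRCm38, taking the principal coding transcript.

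Log2(value + 1) was compared between groups with limma 3.58.1 in R 4.3.3 (lmFit, eBayes with a trend) where the mean over libraries was 10 or more, and p-values were adjusted by Benjamini-Hochberg. For the correction, each library's deviations from the gene means were fitted by loess (span 0.3) on log2 transcript length and GC content and the fit was subtracted. The script was tested on simulated data. Named are the genes called, the highest and lowest per kb of each subcomplex and the 3 smallest changes. Others were named after their values were seen. The genes and lists were chosen with earlier results of these data known. Python 3.11.15, pandas 2.3.3 and NumPy 2.4.6 handled tables. The authors' test could not be repeated on rounded values.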

Additional observations from a re-analysis of the deposited data

How the results depend on the processing

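The 14 lower and 2 higher calls changed by at most 1 each with pseudocounts of 0.5 and 4, a mean of at least 50, or rescaling by trimmed means of M values, and quantile normalization gave 12 and 2 with a median log2 fold change of -0.0836. With no filter beyond a mean above 0 there were 11 lower and 1 higher. Without the variance trend there were 7 and 0, the 7 being *Cenpa*, *Mis18a*, *Cenpw*, *Pmf1*, *Spc24*, *Mad2l1* and *Birc5*. A log2 change of at least 0.5 left 3 and 0, and of at least 1 left 0 and 0. The GC and length correction gave 4 lower and 7 higher (median -0.00337), with the longest coding transcript, chosen after seeing the data, 4 and 5 (median 0.00275). Of the calls in the list, 63.6% were higher after correction, beside 12.5% before. Over all genes called, 49.4% were higher after correction and 47.2% before. Same-numbered lines did not deviate together (correlations 0.0007, -0.005 and -0.003). The lines came from different embryos, and these correlations cannot show whether same-numbered lines shared an experiment. A replicate block left 14 and 2, and with the correction gave 4 and 6 (median -0.00337), *Knl1* being lost (limma adjusted p = 0.051).

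Leaving out each line gave 9 to 16 lower and 1 to 2 higher calls, with medians of -0.16 to -0.12. The lowest count, 9, came without *Ctrl* replicate 2. Some genes changed sign, 13 of the 51 under the correction, none of them called before it (9 from negative to positive, among them *Cenpk* from -0.34 to 0.21 and *Cenph* from -0.30 to 0.12). Without 1 line the ranges were -0.0965 to 0.0614 for *Dsn1*, -0.154 to 0.292 for *Nsl1*, -0.161 to 0.0257 for *Zw10*, -0.0196 to 0.287 for *Cenpf*, -0.210 to 0.151 for *Cenpb*, -0.257 to 0.00856 for *Cenpo* and -0.0409 to 0.112 for *Bub1*. With the correction, with and without the block, *Dsn1* was at 0.167, *Nsl1* at -0.0835, *Zw10* at 0.000675 and *Cenpf* at -0.0608, and with the longest coding transcript at 0.105, -0.0689, 0.0270 and -0.0649, with *Cenpp* at 0.0304 and *Bub3* at 0.0254. None of these values passed the test. The cause was not tested. What depth limits was not assessed, since the reads per library were not estimated.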
